A study of Mus musculus with 13 samples.

Results

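Mast cells were followed through 10 genes out of the 20054 in the deposited count table of whole mouse esophagus. They are the granule proteases Mcpt4, Cma1, Tpsb2 and Cpa3, the basophil protease Mcpt8, the growth factor receptor Kit, the IgE receptor chains Ms4a2 and Fcer1a, the histamine-forming enzyme Hdc and the surface receptor Mrgprb1. They were taken by symbol, and they were chosen by their place in mast cell biology together with the measured group difference in these same libraries (Mcpt4 lower, Ms4a2 higher in dblGATA, the others not called), so their levels in the groups are a description and support nothing. All 10 were in the table, and 9 passed the filter on low counts, the exception being Mcpt8.

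RNA was sequenced from 13 libraries, 6 of WT (C57/BL6) and 7 of dblGATA mice. Every animal, WT included, was given 8 weeks of 4-NQO (4-nitroquinoline 1-oxide), a chemical carcinogen of the mouth and esophagus, followed by 8 weeks of its solvent propylene glycol, a stage named pre-cancer by the submitters. The dblGATA mice carry a deletion of a palindromic GATA site in the promoter of Gata1, without which few or no eosinophils develop. The allele is carried in every cell, mast cells and basophils included, and no group without 4-NQO and no ages are given. The series asks what eosinophils contribute in this model.

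Mast cells are tissue-resident cells of the blood lineage that store proteases and histamine in granules. Mouse connective-tissue mast cells hold the chymases Mcpt4 and Cma1, the tryptase Tpsb2 and carboxypeptidase Cpa3, while mucosal mast cells hold Mcpt1 and Mcpt2. Antigen that crosslinks IgE on the receptor, built from the chains Fcer1a, Ms4a2 and Fcer1g, makes them release the granules, and signals through Kit keep them alive. Mast cells in the esophagus are best known from allergic inflammation.

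The libraries held 66339087 to 98195869 counts. WT 4 and WT 6 had 10.1% and 16.9% of their counts in the ribosomal RNA gene Rn18s, against at most 3.24% elsewhere. WT 3 stood apart in its summed eosinophil markers, 20.6 CPM (counts per 1000000 TMM-scaled counts), and dblGATA 6 was the highest of its group at 4.78 CPM. Of the 9 eosinophil markers 5 were tested and 1 was called lower, Ccr3 at -2.29 ± 0.48 log2 units (SE) with edgeR adjusted p = 0.0179. All 5 tested markers had a log2 fold change below 0, with a list median of -1.23. Ear6 was at 0 in every dblGATA library and in 4 WT libraries. Ear2 had 79 to 269 counts in WT and 65 to 240 in dblGATA, and Il5ra had 3 to 89 in WT and 4 to 53 in dblGATA. Gastric endocrine markers summed to 1231 CPM in WT 5 and to at most 9.03 CPM in any dblGATA library. Of the sum in WT 5, Chga alone made 1226 CPM. The other genes of that list reached at most 4.42 CPM in any WT library, a level held by Chgb. Xist, expressed by female cells, and the Y-linked Ddx3y were both above 3 CPM in several libraries, such as dblGATA 6 with 527 and 23.1 CPM. By library, Xist was at 208, 197, 89.2, 48.9, 0.240 and 828 CPM in WT 1 to WT 6. In dblGATA 1 to dblGATA 7 it was at 0.279, 3.25, 0.768, 1.73, 10.6, 527 and 710 CPM. Female signal was thus not balanced between the groups. The part of sex in the results was not tested, except with Xist as a covariate. Summed skeletal muscle markers ranged from 26136 to 49860 CPM in WT and from 19381 to 41002 CPM in dblGATA, with 6 of 16 called lower. Basal epithelial markers summed to 4769 to 6891 CPM in WT and to 6471 to 9776 CPM in dblGATA, with 7 of 9 called higher. In bulk tissue, fewer cells of a type and less RNA per cell cannot be told apart. The part that tissue makeup has in the results below was not tested, except where a covariate is named.

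The chymases Mcpt4 and Cma1 lie near each other on chromosome 14, and their levels part between the groups, so the bases before their starts are shown with those of Cpa3 and of the IgE receptor chains. Each stretch is the 120 bases upstream of the RefSeq start (GRCm38.p6), written 5′ to 3′ on the gene's strand. Capitals mark GATAA or its reverse complement TTATC, letters to which GATA factors, the family of Gata1 and Gata2, can bind.
Mcpt4, chr14:56062311-56062430, minus strand: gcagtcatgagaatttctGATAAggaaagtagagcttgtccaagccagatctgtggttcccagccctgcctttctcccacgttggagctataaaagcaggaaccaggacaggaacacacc
Cma1, chr14:55944676-55944795, minus strand: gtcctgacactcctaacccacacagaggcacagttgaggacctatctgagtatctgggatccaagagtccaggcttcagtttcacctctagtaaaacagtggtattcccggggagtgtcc
Cpa3, chr3:20242182-20242301, minus strand: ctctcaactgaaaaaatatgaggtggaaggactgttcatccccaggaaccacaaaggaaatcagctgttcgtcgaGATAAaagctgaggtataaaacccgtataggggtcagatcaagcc
Fcer1a, chr1:173227230-173227349, minus strand: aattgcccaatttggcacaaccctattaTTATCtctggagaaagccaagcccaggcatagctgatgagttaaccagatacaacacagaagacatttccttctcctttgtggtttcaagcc
Ms4a2, chr19:11623720-11623839, minus strand: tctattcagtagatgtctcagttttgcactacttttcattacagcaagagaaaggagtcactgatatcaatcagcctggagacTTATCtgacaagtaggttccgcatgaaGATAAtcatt
Counted from the RefSeq start, the motif lies at position -102 in Mcpt4, -45 in Cpa3 and -92 in Fcer1a. Ms4a2 has it at -10 and -37, and 3 times within 250 bases, upstream of its RefSeq start, which differs from the start in the transcript annotation. Cma1 holds none in the stretch shown and 1 further upstream, at -194. Within 250 bases upstream, GATAA on either strand was found in 5 of the 9 genes with a RefSeq entry, and in 22.6% of 32851 promoters of 27025 genes. The 5 with it are the 5 shown above, and Kit, Hdc, Mrgprb1 and Mcpt8, which are not shown, had none. CANNTG, the letters of E-boxes, was found in 6 of the 9 and in 66.2% of all promoters. The 9 were counted per gene, with a match in any promoter of the gene, while both percentages are per promoter. They are therefore in unlike units. These matches describe letters in a window, and binding was not measured. Tpsb2 had no entry.

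Mcpt4, the mouse chymase closest in function to the human enzyme, had the largest difference of the 9 tested genes. WT 1 to WT 6 had 5.78, 14.1, 7.86, 11.1, 7.54 and 14.6 CPM. The dblGATA libraries had a lowest level of 1.40, a median of 2.68 and a highest of 7.20 CPM. The groups overlap through dblGATA 6 alone, whose 7.20 CPM lies above WT 1 and below the other WT libraries. The mean was 10.2 ± 3.68 CPM in WT (SD, n = 6) and 3.42 ± 2.12 CPM in dblGATA (SD, n = 7), or 0.336 of the WT level. The log2 fold change in the edgeR quasi-likelihood fit was -1.57 ± 0.37 (SE) with adjusted p = 0.0231.

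That call was lost when a single library was left out, namely WT 4 (edgeR adjusted p = 0.0545), WT 6 (0.0593), dblGATA 5 (0.051) or dblGATA 7 (0.0526). The log2 fold changes there were -1.54, -1.44, -1.46 and -1.52, in that order, and the genes called over the whole table fell from 2239 to 396, 357, 535 and 546. Over all 13 such repeats it ran from -1.86 to -1.44. Without both WT 4 and WT 6 the log2 fold change of Mcpt4 was -1.37 (edgeR adjusted p = 0.134), with Rn18s as a covariate -1.17 (0.116) and with the skeletal muscle score -1.60 (0.739). No gene of the table passed in those 3 fits. Without dblGATA 6 it was -1.86 (edgeR adjusted p = 0.016). The authors' deposited table gave -1.56 with adjusted p = 0.000463.

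Cma1, the other chymase, did not share the difference. WT ranged from 4.73 to 9.74 CPM with a median of 7.36, and dblGATA from 4.05 to 10.5 CPM with a median of 7.50. The ranges lie over each other almost completely, with a log2 fold change of -0.02 ± 0.24 (SE) with edgeR adjusted p = 0.961.

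Related genes can share reads. The longest coding transcripts of Mcpt4 and Cma1 are 75.6% identical over 947 aligned bases. Windows of 50 bases also found in a transcript of another gene made up 5.48% of Mcpt4, most of them in Cma2, and 5.38% of Cma1, most of them in Gm48934. Tpsb2, Cpa3, Mcpt8, Kit, Fcer1a, Hdc and Mrgprb1 had none, and Ms4a2 had 2.69%, most of them in Ms4a4b. How the authors counted reads that match several genes is not stated in the sources used here, and the values of Mcpt4, Cma1 and Ms4a2 carry that uncertainty.

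The tryptase Tpsb2, a trypsin-like protease stored as a tetramer, had 6.26 to 10.2 CPM in WT with a median of 8.01. In dblGATA it had 3.27 to 9.51 CPM with a median of 6.89. The 3 lowest levels, 3.27, 4.26 and 4.74 CPM, belonged to dblGATA 3, dblGATA 5 and dblGATA 1, below every WT library, and the others lay within the WT range. The log2 fold change was -0.32 ± 0.24 (SE) with edgeR adjusted p = 0.378.

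Cpa3, the carboxypeptidase that trims peptides inside the granule, had 4.23 to 11.1 CPM in WT with a median of 7.32. In dblGATA it had 4.39 to 11.3 CPM with a median of 9.04. Both groups span the same range, and the log2 fold change was 0.11 ± 0.27 (SE) with edgeR adjusted p = 0.815. Its highest and lowest dblGATA levels were in dblGATA 4 and dblGATA 3, the same libraries as for Cma1.

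**Figure D1:**
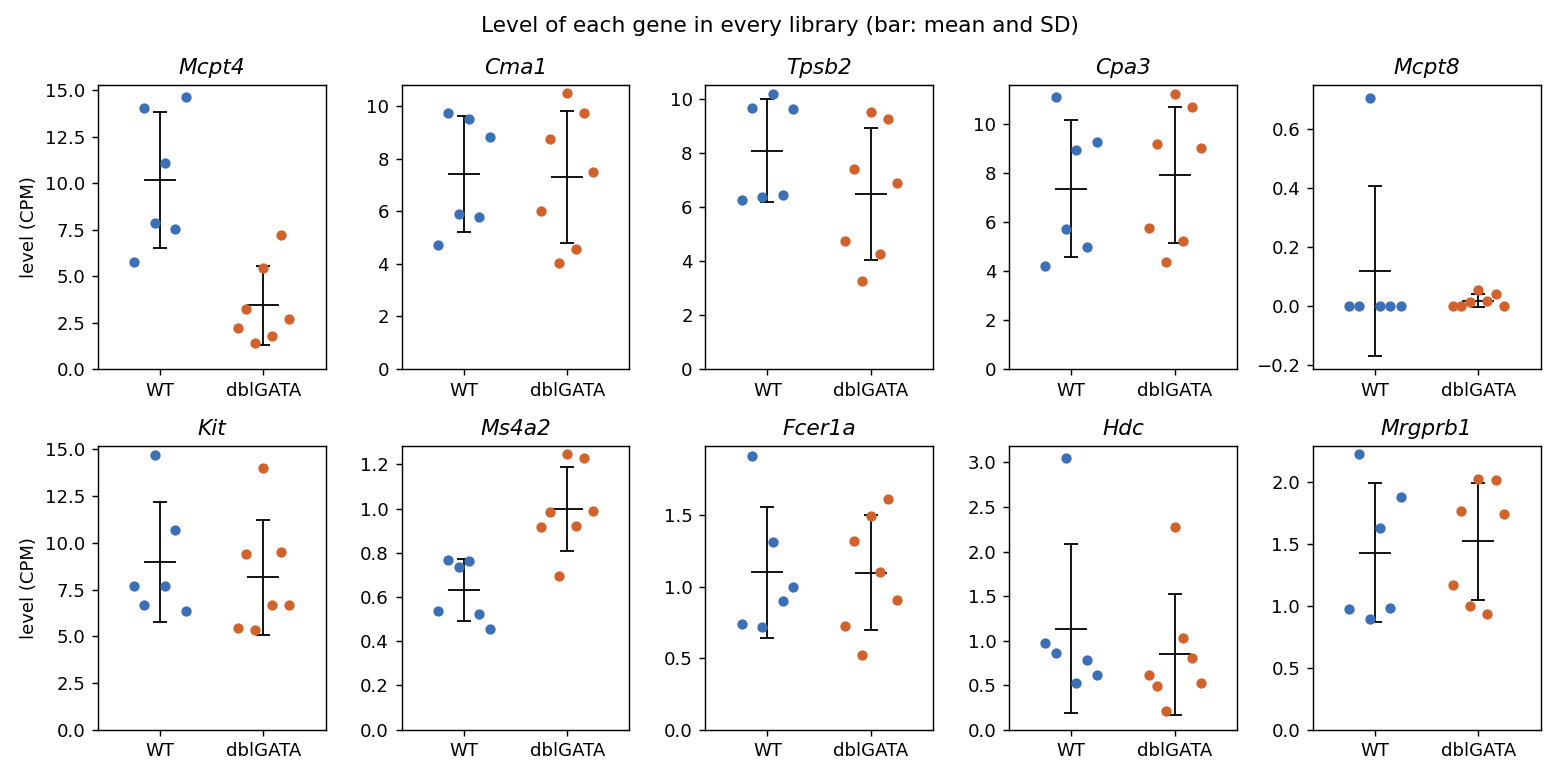
Level of each of the 10 genes in CPM (y axis) in the 6 WT and 7 dblGATA libraries (x axis); each point is a library, and bars give the mean and SD. Mcpt4 lies at 5.78 to 14.6 CPM in WT and 1.40 to 7.20 CPM in dblGATA, Ms4a2 is the gene called higher in dblGATA, with a mean of 0.997 against 0.631 CPM, and Mcpt8 rests on WT 3 at 0.707 CPM.

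Since the proteases went up and down together from library to library, their counts were set against each other within a library, which takes out sequencing depth and the scaling between libraries. WT 1 to WT 6 held 1.22, 1.44, 1.34, 1.17, 1.30 and 1.65 Mcpt4 counts per Cma1 count. The dblGATA libraries held 0.369, 0.368, 0.346, 0.516, 0.392, 0.738 and 0.357, in the order of their numbers. Every WT library lies above every dblGATA library, and dblGATA 6 is again the nearest to WT, followed by dblGATA 4. The mean ratio was 1.35 ± 0.176 in WT (SD, n = 6) and 0.441 ± 0.143 in dblGATA (SD, n = 7), 3.07-fold higher in WT. Per Cpa3 count, Mcpt4 had 1.24 to 1.58 in WT and 0.296 to 0.671 in dblGATA, also with no overlap.

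Tpsb2 showed a smaller difference of the same direction. Its counts per Cma1 count were 0.992 to 1.32 in WT and 0.788 to 0.949 in dblGATA, so these ratios do not overlap although the CPM levels do. Per Cpa3 count Tpsb2 had 0.868 to 1.48 in WT and 0.744 to 0.863 in dblGATA. Cma1 per Cpa3 count overlapped, with 0.875 to 1.17 in WT and 0.830 to 1.05 in dblGATA. The ratio of Mrgprb1 to Cpa3 had the same mean in both groups, 0.195.

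Over the whole table, 0.0361% of the tested genes (6 of 16599) had lower counts per Cma1 count in dblGATA with no overlap, and 0% had higher ones. Those 6 were Ccr3, the eotaxin receptor of eosinophils, Mcpt4, Tpsb2, Dcaf12l1, Gm12097 and Gm38407, named after their values were seen. In CPM, 0.711% of tested genes did not overlap in the lower direction and 1.95% in the higher one, and none of the 10 genes was among them. For counts per Cpa3 count no share over all genes was taken, so the lack of overlap there has no background beside it. Dividing by Cma1 adds its spread, 4.05 to 10.5 CPM within dblGATA, to every gene that does not vary with it. Mcpt4 and Tpsb2 vary with Cma1 (r = 0.93 and 0.97, group means removed), so the share per Cma1 count is no like background for them. Because of this, and because the 10 genes were chosen with this contrast known, nothing is read from these shares.

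**Figure D2:**
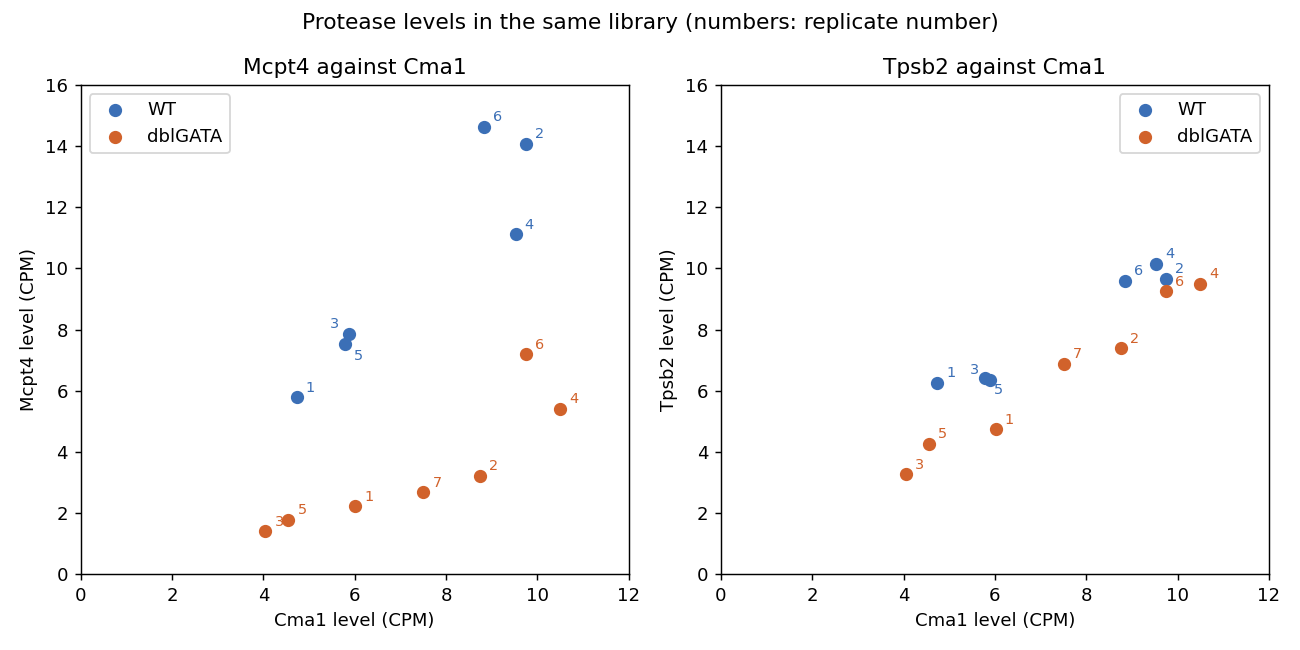
Levels of Mcpt4 (left, y axis, CPM) and Tpsb2 (right, y axis, CPM) against the level of Cma1 (x axis, CPM) in the same library; points are the 13 libraries, numbered by replicate. On the left the WT points form a band at 1.17 to 1.65 Mcpt4 counts per Cma1 count and the dblGATA points a lower one at 0.346 to 0.738; on the right the bands lie close together.

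Mcpt8, a protease of basophils and not of mast cells, was nearly absent. WT 3 held 49 counts, or 0.707 CPM, and the other 5 WT libraries held 0. The dblGATA libraries held 0, 0, 1, 5, 1, 3 and 0 counts in the order of their numbers. A count of 3 is worth 0.0299 to 0.0526 CPM in these libraries, and a count of 0 allows a level up to that size, for counting error alone. The WT 3 library was also the one with the most counts of Prss34, another basophil protease, with 131 against 3 to 14 in the other WT and 0 to 2 in dblGATA libraries, and of Gata1, with 106 against 1 to 10 in all others. Neutrophil granule genes peaked there too, with 2611 counts of Ngp against 0 to 21 in the other libraries, 856 of Camp against 30 to 107 and 318 of Mmp8 against 0 to 12. The summed neutrophil markers did not peak in WT 3, where they stood at 431 CPM in a WT range of 163 to 2138 CPM. S100a8 and S100a9 made up most of that sum, with WT means of 390 and 539 CPM. No other gene of the list had a WT mean above 8.20 CPM, so the sum says little about them. Of those, Retnlg and Ly6g also peaked in WT 3, while Cxcr2 and Csf3r were highest in dblGATA libraries. Mcpt8, Prss34, Gata1, Ngp, Camp and Mmp8 are high in WT 3 together with its eosinophil markers, and Mcpt8 gives no comparison between the groups.

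Kit, the receptor for stem cell factor, had 6.33 to 14.7 CPM in WT with a median of 7.71. In dblGATA it had 5.33 to 14.0 CPM with a median of 6.68. WT 3 and dblGATA 4 were the highest of their groups, and the groups overlap throughout. Its log2 fold change of -0.14 ± 0.25 (SE) with edgeR adjusted p = 0.734 became 0.059 without WT 3 (0.89). Kit is also carried by interstitial cells of Cajal, the pacemaker cells of gut muscle, and by melanocytes. Markers of the former summed to 79.0 to 144 CPM in WT, highest in WT 3, and to 75.9 to 126 CPM in dblGATA, and those of the latter to at most 0.649 CPM in any library. The part of those cells in the Kit level was not tested.

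Of the IgE receptor chains, Ms4a2 (the beta chain, which amplifies the signal) was higher in dblGATA. WT 1 to WT 6 had 0.537, 0.769, 0.736, 0.761, 0.525 and 0.456 CPM, and dblGATA had a lowest level of 0.695, a median of 0.985 and a highest of 1.24 CPM. Of the dblGATA libraries only dblGATA 3 lay inside the WT range, and the other 6 lay above it. These levels rest on 26 to 57 counts per WT library and 57 to 116 per dblGATA library. The mean was 0.631 ± 0.140 CPM in WT (SD, n = 6) and 0.997 ± 0.191 CPM in dblGATA (SD, n = 7), which gives 0.66 ± 0.19 as the log2 fold change (SE) with edgeR adjusted p = 0.0366.

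Its log2 fold change ran from 0.58 to 0.73 over the 13 repeats that left out 1 library. The Ms4a2 call held only without WT 2, WT 3, dblGATA 1 or dblGATA 3. It was lost when WT 1, WT 4, WT 5, WT 6, dblGATA 2, dblGATA 4, dblGATA 5, dblGATA 6 or dblGATA 7 was dropped, with an edgeR adjusted p between 0.0538 (for dblGATA 2) and 0.0896 (for WT 6). Its log2 fold change stayed at 0.63 without both WT 4 and WT 6 (edgeR adjusted p = 0.148). The authors' deposited table gave 0.62 with adjusted p = 0.0459.

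Fcer1a, the alpha chain that binds IgE, did not follow Ms4a2 between the groups. WT ranged from 0.721 to 1.92 CPM with a median of 0.951, and dblGATA from 0.524 to 1.62 CPM with a median of 1.10. It had a log2 fold change of -0.00 ± 0.29 (SE) with edgeR adjusted p = 0.998.

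Hdc, which makes histamine from histidine, was set by single libraries in both groups. WT 3 had 3.04 CPM and the other WT libraries 0.523 to 0.973, while dblGATA 4 had 2.27 CPM and the other dblGATA libraries 0.207 to 1.03. Apart from WT 3 and dblGATA 4 the levels of the groups overlap. The log2 fold change of -0.42 ± 0.51 (SE) with edgeR adjusted p = 0.601 turned to 0.17 without WT 3 (0.829) and was -0.90 without dblGATA 4 (0.191). Hdc is also made by basophils and by gastric endocrine cells, whose markers are given above.

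Mrgprb1, a receptor of the Mas-related family, had 0.894 to 2.23 CPM in WT with a median of 1.31. In dblGATA it had 0.937 to 2.03 CPM with a median of 1.74, and the groups overlap throughout. For Mrgprb1 the log2 fold change was 0.09 ± 0.27 (SE) with edgeR adjusted p = 0.844.

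Of the 9 tested genes, 1 was thus called higher and 1 lower by edgeR, against 7.1% and 6.39% of all 16599 tested genes, or 13.5% in both directions. Their median log2 fold change was -0.02, and that of all tested genes was -0.00. DESeq2 and limma-voom each called 2 of the 9 as well, where they called 3536 and 1997 genes of the whole table. These shares and counts are printed beside the calls and nothing is read from them, since this contrast chose the genes.

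**Figure D3:**
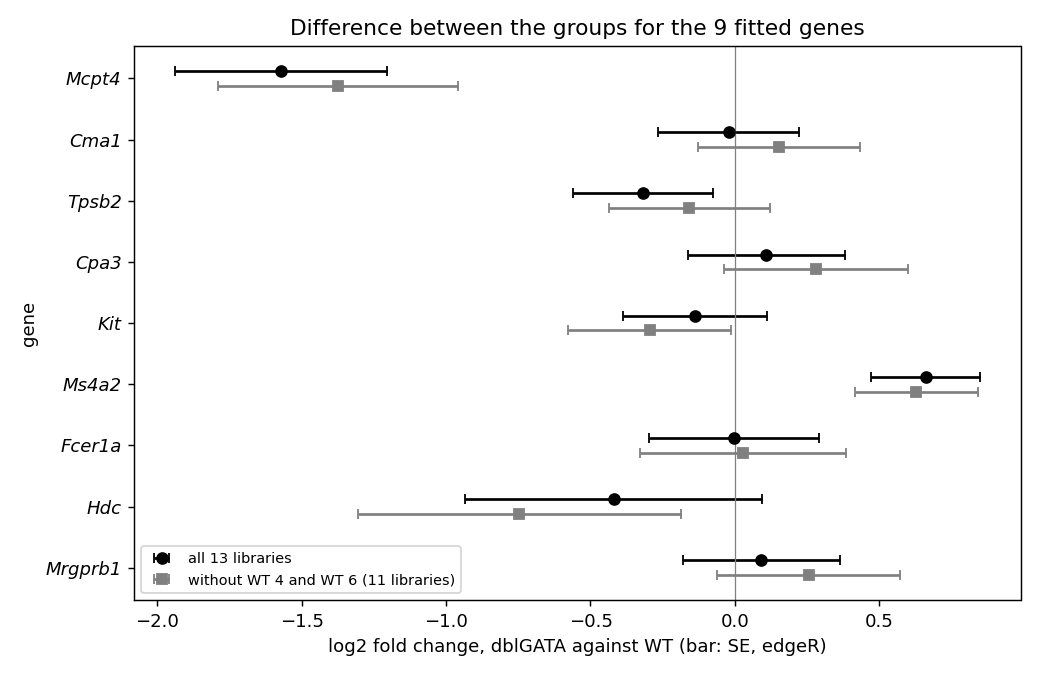
Log2 fold change of dblGATA against WT (x axis) for the 9 genes tested (y axis), with all 13 libraries in black and without WT 4 and WT 6 in grey; bars are the SE of the edgeR fit. Mcpt4 lies at -1.57 and -1.37 and Ms4a2 at 0.66 and 0.63, while the other 7 genes lie between -0.42 and 0.11 with all libraries.

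Levels per transcript length place the granule proteases above the receptors. In WT, the mean in CPM per kilobase of the longest coding transcript was 9.18 for Mcpt4, 6.81 for Cma1, 6.27 for Tpsb2 and 5.09 for Cpa3. Then came Kit at 1.71, Fcer1a at 1.10, Hdc at 0.474, Mrgprb1 at 0.342, Ms4a2 at 0.264 and Mcpt8 at 0.141. In dblGATA the same quantity was 6.70 for Cma1, 5.48 for Cpa3, 5.02 for Tpsb2 and 3.08 for Mcpt4, so that Mcpt4 had the highest mean of the 4 proteases in WT and the lowest in dblGATA. The levels of Cma1, Tpsb2 and Cpa3 lie within their spread over libraries in each group.

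How the genes vary among libraries of a group was not used to choose them. With group means removed, log2 CPM of each gene was set against that of Cpa3 over the 13 libraries, 9 relations in all, with two-sided permutation tests within groups and Benjamini-Hochberg adjustment. Cma1 followed Cpa3 with Pearson r = 0.98 (adjusted permutation p = 9e-05) and Spearman rho = 0.96 (0.000135), and the unadjusted p of r, 1e-05, is the smallest these permutations can give. Mrgprb1 had r = 0.96 (adjusted permutation p = 0.00012) and rho = 0.90 (0.000382), and Tpsb2 had r = 0.94 (0.00012) and rho = 0.91 (0.00024). Mcpt4 had r = 0.91 (adjusted permutation p = 0.000157, unadjusted 7e-05) and rho = 0.96 (0.000135). Mcpt4 thus followed Cpa3 within WT (r = 0.97) and within dblGATA (r = 0.92), at a different level of Mcpt4 in each. Fcer1a, on cells that bind IgE, had r = 0.84 (adjusted permutation p = 0.00153, unadjusted 0.00085) and rho = 0.82 (0.00275).

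The remaining genes followed Cpa3 less closely. Ms4a2 had r = 0.63 (adjusted permutation p = 0.0459, unadjusted 0.0306) and rho = 0.74 (0.0118), but the adjusted p of r rose above 0.05 in 11 of the 13 repeats that left out 1 library. Kit had r = 0.22 (adjusted permutation p = 0.623) and rho = 0.23 (0.594), and Hdc had r = 0.15 (0.727) and rho = 0.17 (0.666). Mcpt8 had r = -0.055 (adjusted permutation p = 0.943) and rho = -0.0057 (0.993). Within dblGATA alone Kit had r = 0.85 and Hdc 0.56, and within WT alone -0.57 and -0.41, a difference that was not tested. Without WT 1 and dblGATA 3, the libraries farthest from the median of Cpa3, r was 0.96 for Cma1, 0.98 for Mrgprb1, 0.95 for Tpsb2, 0.87 for Mcpt4, 0.76 for Fcer1a and 0.46 for Ms4a2. With the skeletal muscle score also removed, 5 genes passed against Cpa3, and with Rn18s removed 6.

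**Figure D4:**
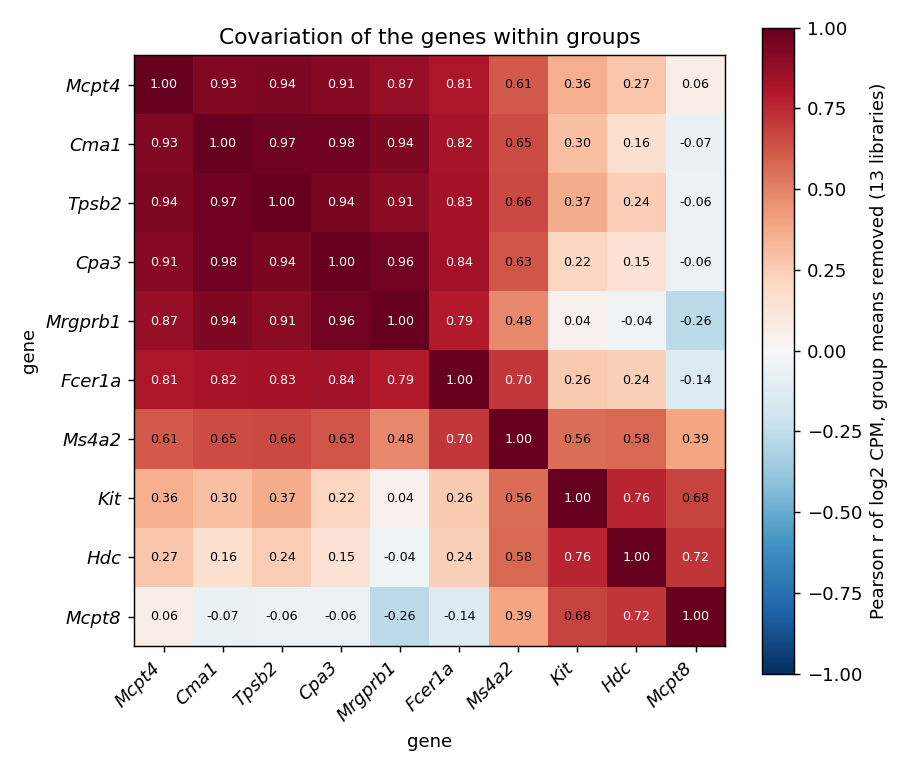
Pearson r of log2 CPM between each pair of the 10 genes (both axes) over 13 libraries with group means removed; red is positive, blue negative, and each cell prints its r. Mcpt4, Cma1, Tpsb2, Cpa3, Mrgprb1 and Fcer1a form a block, with r of 0.84 to 0.98 against Cpa3. Kit, Hdc and Mcpt8 have r = 0.76 for Kit with Hdc, 0.72 for Hdc with Mcpt8 and 0.68 for Kit with Mcpt8. Mcpt8 had 49 counts in WT 3 and at most 5 in any other library. WT 3 and dblGATA 4 were the highest of their groups in both Kit and Hdc, and these r were not tested.

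Among 13805 genes with a mean of at least 1 CPM, the genes most like Mcpt4 within groups were, besides Tpsb2 at rank 1, Cma1 at rank 2, Cpa3 at rank 4 and Mrgprb1 at rank 6, Gpx8 (r = 0.91), Prdx4 (0.87), Carhsp1 (0.85), Prkd3 (0.85) and Ccdc126 (0.84). For Cpa3, the first 3 ranks were Cma1, Mrgprb1 and Tpsb2, Mcpt4 came at rank 5, and the genes outside the 10 were Prdx4 (r = 0.93), Cldn34c1 (0.91), Ccdc126 (0.89), Dse (0.85) and Clec4a2 (0.85). Kit came at rank 2181 for Mcpt4 and 3806 for Cpa3. These r values describe 13 libraries, and no test was run on ranks.

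Around these genes, 6 lists of the same biology were counted in the same edgeR fit, against the 13.5% of all genes that passed. Among 20 other genes of mast cell granules and identity, 1 passed, and the list's median log2 fold change was 0.02. That gene was Cd63, a membrane protein of granules that most cells also carry, which fell from 192 ± 17.6 (SD, n = 6) to 155 ± 13.3 CPM (SD, n = 7), by 0.31 ± 0.07 log2 units (SE) with edgeR adjusted p = 0.0228. The tryptase gene Tpsab1 had a log2 fold change of 0.19 ± 0.30 (SE) with edgeR adjusted p = 0.693.

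The mucosal mast cell chymases Mcpt1 and Mcpt2, named here for their role after their values were seen, gave a different picture from Mcpt4. Mcpt1 had 1.11 to 8.02 CPM in WT and 5.23 to 11.1 CPM in dblGATA, a log2 fold change of 0.83 ± 0.36 (SE) with edgeR adjusted p = 0.127. Mcpt2 had 0.368 to 3.76 CPM in WT and 1.83 to 5.01 CPM in dblGATA, a log2 fold change of 0.29 ± 0.41 (SE) with edgeR adjusted p = 0.658. Neither passed. Within groups they followed each other (r = 0.97 over 13 libraries) and not Cpa3 (r = -0.16 for Mcpt1 and -0.12 for Mcpt2).

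Of 9 further basophil genes 5 were tested and 1 passed, with a median log2 fold change of 0.20. Itga2, an integrin chain also found on epithelium, rose from 6.58 ± 0.667 (SD, n = 6) to 9.84 ± 1.57 CPM (SD, n = 7), by 0.58 ± 0.11 log2 units (SE) with edgeR adjusted p = 0.0161, with no overlap. It rose in the libraries in which basal epithelial markers are higher as a group, and the part of the epithelium in it was not tested.

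Below the IgE receptor, 2 of 20 signalling genes passed, both higher, and the median was 0.09. Plcg2, a phospholipase that the receptor activates, rose from a range of 22.6 to 26.7 CPM in WT to one of 26.9 to 40.8 CPM in dblGATA, by 0.47 ± 0.09 log2 units (SE) with edgeR adjusted p = 0.017. Rasgrp1, which activates Ras, rose from 17.5 ± 2.24 (SD, n = 6) to 23.4 ± 4.34 CPM (SD, n = 7), by 0.42 ± 0.12 log2 units (SE) with edgeR adjusted p = 0.0352, but its call was lost without WT 1, WT 3, WT 4, WT 5, WT 6, dblGATA 3, dblGATA 5 or dblGATA 7 (edgeR adjusted p up to 0.0741). The authors' deposited pathway table listed Fc Epsilon RI Signaling with a −log10 p of 1.47, a ratio of 0.186 and a z score of 1.528. Of its 22 molecules, 0 were among the 10 genes and 1, Plcg2, was among the 20 signalling genes.

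Of 14 growth and recruitment factors 12 were in the table and tested, and 1 passed, with a list median of 0.01. Il4ra, a receptor chain shared by the cytokines Il4 and Il13, rose from a range of 25.5 to 29.1 CPM in WT to one of 29.0 to 60.3 CPM in dblGATA, by 0.57 ± 0.16 log2 units (SE) with edgeR adjusted p = 0.0341. Of 15 transcription factors 14 were tested and 1 passed, with a median of -0.02. Mitf, which mast cells and melanocytes need, fell from 8.66 ± 0.656 (SD, n = 6) to 6.85 ± 0.842 CPM (SD, n = 7), by 0.34 ± 0.09 log2 units (SE) with edgeR adjusted p = 0.0299.

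The calls of both were lost in several repeats without 1 library, while the fold changes stayed at 0.45 to 0.64 for Il4ra and at -0.38 to -0.30 for Mitf. Il4ra lost its call without WT 1, WT 3, WT 4, WT 6, dblGATA 4, dblGATA 5 or dblGATA 7 (edgeR adjusted p up to 0.0713), and Mitf without WT 1, WT 4, WT 6, dblGATA 3, dblGATA 5 or dblGATA 7 (up to 0.0664). Cd63 lost it without WT 4, WT 6, dblGATA 5 or dblGATA 7 (up to 0.0593). Itga2 and Plcg2 kept it in all 13 such fits, but not without both WT 4 and WT 6 or with the Rn18s or skeletal muscle covariate, where no gene of the table passed. With the skeletal muscle covariate the log2 fold change was 0.29 for Plcg2, 0.17 for Rasgrp1, 0.31 for Il4ra, -0.19 for Cd63 and -0.22 for Mitf, over 1.5 times nearer 0 than without it. Itga2 did not shrink as far. It stayed at 0.48 to 0.59 over the settings other than leaving out 1 library, that covariate included, against 0.58 in the main fit.

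Of 6 histamine receptors and histamine-degrading enzymes 4 were tested and 0 passed in edgeR, DESeq2 or limma-voom, with 2 at an unadjusted edgeR p under 0.05 and a median log2 fold change of 0.33. Hnmt, which degrades histamine, had -0.35 ± 0.14 (SE) with edgeR adjusted p = 0.1, the receptor Hrh2 had 0.39 ± 0.16 (0.106) and the receptor Hrh1 had 0.28 ± 0.15 (0.221).

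**Figure D5:**
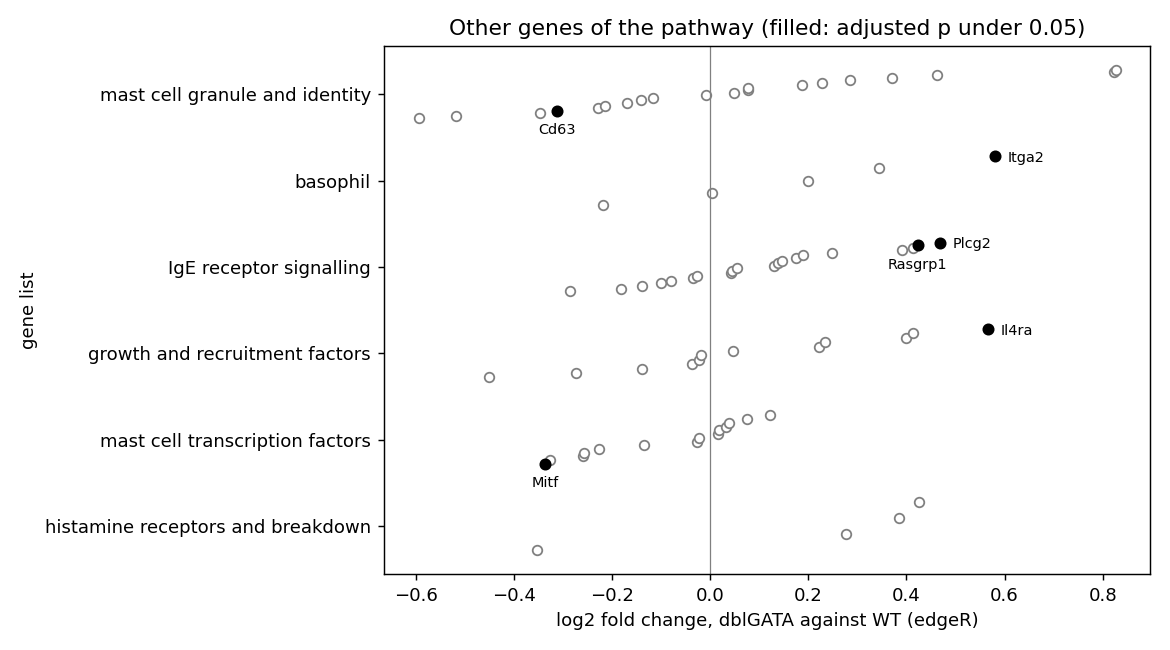
Log2 fold change of dblGATA against WT (x axis, edgeR) for each tested gene of the 6 lists (y axis); filled and named points passed at an adjusted p under 0.05, open ones did not. Cd63 (-0.31) and Mitf (-0.34) are the filled points on the lower side, and Itga2 (0.58), Il4ra (0.57), Plcg2 (0.47) and Rasgrp1 (0.42) those on the higher side.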

How the data were processed

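RNA of whole esophagus was measured in 6 WT and 7 dblGATA libraries, stranded and poly-A selected with a mean RNA integrity number of 8.8, per the labels' protocols. No label states that every library is its own animal, and p-values reflect only how these libraries spread, which may be technical. The main table deposited by the authors holds whole numbers per gene, read here as rounded estimated counts from the values themselves: of 13122 genes with high counts in every library, 25.8% had a factor between raw and normalized value over 10% off their library's median. The authors' normalized signal was deposited beside it and served as an alternative. Per the submitters' processing notes, DESeq2 1.34.0 was used. Aligner, counter and build are not stated in the sources used here, and coordinates come only from RefSeq on GRCm38.p6, and transcript lengths and shared windows from the GENCODE transcripts supplied. The authors' deposited log2 fold changes and p-values, and the −log10 p, ratio and z score of a deposited pathway table (per the file headers, Ingenuity Pathway Analysis) are credited where printed.

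CPM are per 1000000 TMM-scaled counts. Genes passed filterByExpr of edgeR 4.0.16 (minimum count 10, minimum total 15; R 4.3.3), which left 16599 of 20054. Groups were compared by robust quasi-likelihood fits over all tested genes with Benjamini-Hochberg adjustment at 0.05. Correlations used log2 CPM with a prior count of 2, group means removed and 100000 permutations within groups (numpy 2.4.6). No libraries of a group agreed within sampling noise (chi-square per degree of freedom at least 50.2). Symbols standing for several identifiers numbered 27. The number of unused sample columns was 0. The edgeR and limma fits were tested on simulated data.

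The 10 genes and all lists were chosen with earlier results of these data known. Besides the 10, the text names genes past the threshold in each list (otherwise up to 3 with the highest levels), the 5 genes outside the 10 most like Mcpt4 and most like Cpa3, and Xist, Ddx3y and Tpsab1. Genes of the marker lists stand only beside a result. Rn18s, Prss34, Gata1, Ngp, Camp, Mmp8, Chga, Chgb, Mcpt1, Mcpt2 and the genes of the ratio comparison were named after their values were seen. So were Retnlg, Ly6g, Cxcr2, Csf3r, S100a8 and S100a9. Marker lists covered eosinophils, neutrophils, interstitial cells of Cajal, melanocytes, gastric endocrine cells, skeletal muscle, adipocytes, fibroblasts and basal epithelium. Alternatives were DESeq2 1.42.0, limma-voom (limma 3.58.1), other factors and filters, a replicate block, covariates (skeletal muscle, Rn18s, Xist) and left-out libraries. Leaving out WT 3 and dblGATA 6 together was chosen after seeing the data.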

Additional observations from a re-analysis of the deposited data

Results flagged for a closer look

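In 24 groups of libraries checked for a value far from the rest, 4 stood out by Dixon's test at the 95% level, where chance marks about 1 in 20 groups. Hdc stood at 3.04 CPM in WT 3 and at 2.27 CPM in dblGATA 4, each far above the rest of its group. Mcpt8 stood at 0.707 CPM in WT 3, where the other WT libraries had none. The Tpsb2 to Cma1 count ratio stood at 1.32 in WT 1, above the other WT libraries. The causes were not tested.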

How the results depend on the processing

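Of the 10 genes, 2 were called in the main analysis. The number was 1 with a filter of 1 CPM in at least 6 libraries, with the authors' normalized signal, with the replicate block and without WT 3 and dblGATA 6. Genes called over the whole table numbered 2411, 1814, 868 and 1855 in these settings, in that order. Under the 1 CPM filter Ms4a2 and Hdc were not tested, so Ms4a2 could not be called there. The number of the 10 genes called was 0 without WT 4 and WT 6, with the Rn18s covariate and with the skeletal muscle covariate, settings in which no gene of the table passed and all 6 lists had 0 called. Leaving out 1 library gave 0 to 2, in fits that called 357 to 3828 genes of the table. For the lists, leaving out 1 library gave 0 to 2 for granule genes, growth factors and transcription factors, 1 to 3 for IgE receptor signalling and 0 to 1 for histamine genes. Without a filter 2 basophil genes passed, beside 1947 genes of the table. Growth factors gave 2 with DESeq2 or the 1 CPM filter, and 0 without WT 3 and dblGATA 6, where IgE receptor signalling gave 1. With the replicate block IgE receptor signalling gave 1, and growth factors and transcription factors gave 0. The labels do not state that same-numbered libraries are pairs. Over all tested genes, same-numbered libraries correlated at -0.106 to 0.0609 and 0 of 6 WT libraries went best with its own number. Such a correlation over the whole table cannot exclude a shared cage, litter or batch. Under the block, Mcpt4 had -1.68 (edgeR adjusted p = 0.0358), Ms4a2 0.66 (0.113) and 868 genes of the table passed, against 2239. With Xist as a covariate, Mcpt4 had -1.39 (edgeR adjusted p = 0.0352), Ms4a2 0.71 (0.0433) and 1625 genes of the table passed.

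Among those of the 10 genes that were not called, fold changes near 0 changed sign: with the Rn18s and the skeletal muscle covariate, in that order, Cma1 had 0.32 and -0.17, Cpa3 0.53 and -0.20, Mrgprb1 0.49 and -0.19 and Fcer1a 0.24 and -0.34, none called, and Tpsb2 went from -0.32 to -0.024 with Rn18s. Directions also turned for Tpsab1 (-0.28 with the skeletal muscle covariate) and Mcpt2 (-0.095 with WT 4 and WT 6 left out, -0.17 with Rn18s). The correlation of Mcpt8 with Cpa3 was 0.062 with WT 4 and WT 6 left out, 0.71 under the block, 0.12 with Rn18s and 0.17 without WT 3 and dblGATA 6. Leaving out 1 library it ran from -0.15 to 0.30, and that of Hdc with Cpa3 from -0.13 to 0.30. The number of genes correlated with Cpa3 was 5 to 8 against 6. The causes of these changes were not tested. Counts of Mcpt8 and Ms4a2 limit what depth can show.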

Other observations

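Neutrophil markers summed to 163 to 2138 CPM in WT and to 139 to 2165 CPM in dblGATA, and adipocyte markers to 672 to 1733 CPM and 446 to 1211 CPM, with 1 of 6 tested neutrophil genes and 1 of 10 adipocyte genes called lower by edgeR. S100a8 and S100a9 made up most of the neutrophil sums. Fibroblast markers summed to 2156 to 2786 CPM in WT and to 2025 to 2707 CPM in dblGATA, with 0 of 8 called by edgeR (1 at an unadjusted p under 0.05, 0 by DESeq2 and 0 by limma-voom). The basophil protease Prss34, which did not pass the filter on low counts, had counts of 3, 14, 131, 8, 3 and 7 in WT 1 to WT 6 and of 1, 0, 0, 2, 0, 1 and 0 in dblGATA 1 to dblGATA 7. In a fit with no filter its log2 fold change was -5.60 ± 1.12 (SE) with edgeR adjusted p = 0.0199, a value that depends on the prior count. Prss34 was named after its values were seen.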
